A study of Rattus rattus with 8 samples.

Results

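The libraries described here are the 4 made from diploid (2n) cells of hypoxic neonatal rat cardiomyocyte cultures, out of 8 libraries in the study. They were taken by their sample titles, and the remaining 4 libraries, from tetraploid (4n) cells of cultures treated in the same way, were not contrasted with them. The cells came from SD strain rats 1 to 3 days old. Per the labels' protocols, they were plated after differential adherence, a step in which stromal cells stick to plastic first and which is used to enrich heart muscle cells. For 24 h the medium then held insulin, transferrin, selenium and AraC at 0.2 mM, which blocks DNA synthesis and is used to hold back dividing non-muscle cells. Serum was withdrawn to arrest the cell cycle, oxygen was set to 1% for 48 h, and the cells were stained with Hoechst 33342, a dye that binds DNA, at 2 µg/mL and sorted by DNA content. All 8 libraries were hypoxic, so no normoxic value stands beside any level below. The labels call the sorted fraction diploid NRCM, with no sort on a cardiomyocyte or stromal protein, and the series' design text describes the replicates as independent experiments. They do not say how many hearts went into each. The labels name the organism as Rattus rattus, while the strain and the genome build belong to Rattus norvegicus.

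The heart holds muscle cells together with fibroblasts, which make the collagen matrix, mural cells (smooth muscle cells and pericytes), which wrap vessels, and endothelial cells, which line them. Fibroblasts in culture commonly take up contractile proteins such as smooth muscle actin and secrete matricellular proteins, a state called activated or myofibroblast. Low oxygen stabilises hypoxia-inducible factors, which raise genes of glycolysis, glucose uptake, vessel growth and collagen modification.

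Library totals were 14783521, 21033772, 17637567 and 19657990 counts in replicates 1 to 4, and 2.87, 3.06, 3.37 and 3.82% of them fell on the mitochondrial chromosome, which was left out of every rank and share. Levels are given as FPKM, the fragments of a gene per kilobase of its length and per library size, so that genes of different length can be set side by side. A gene was called expressed when its mean FPKM over the 4 libraries was at least 1. This held for 11677 of 30920 genes (37.8%), of which 649 reached 100 FPKM and 38 reached 1000. Each count of expressed genes on a list below stands against that 37.8%. Counts at 100 FPKM or more stand against 2.10% of all genes. A group of related genes is also described by its share, the sum of its FPKM as a percent of the summed FPKM of all genes in that library. Runs of 4 values follow the order replicate 1, 2, 3 and 4. In bulk RNA, fewer cells of a type and less RNA per cell cannot be told apart. Across expressed genes the log2 values of library pairs correlated with Pearson's r from 0.963 to 0.984, a description across genes, which are not independent replicates. Replicate 2 stood apart in hypoxia target genes and replicate 4 in cytokine genes, as given further on.

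The 4 genes used to mark the fraction were all abundant. Col1a1, the alpha-1 chain of type I collagen, had FPKM values of 6061, 5173, 5402 and 4427 and was the most abundant gene of all (mean 5266 ± 674 SD, n = 4). Tagln, transgelin, an actin-binding protein of smooth muscle and of contractile fibroblasts, had 1436, 2109, 1572 and 1713 FPKM (mean 1708 ± 291 SD, n = 4, rank 15). Postn, periostin, a matricellular protein of activated fibroblasts, had 1193, 1017, 1374 and 991 FPKM (mean 1144 ± 178 SD, n = 4, rank 31). Dcn, decorin, a small proteoglycan that binds collagen fibrils, had 285, 270.1, 307 and 425 FPKM (mean 322 ± 70.3 SD, n = 4, rank 189). The 4 genes were high in every library, and the ratio of its highest to its lowest library was 1.37 for Col1a1, 1.39 for Postn, 1.47 for Tagln and 1.57 for Dcn. In the table, on build Rnor 6.0, Col1a1 lies on chromosome 10 from 82745801 to 82762789, Postn lies on chromosome 2 from 143656793 to 143688087, Dcn lies on chromosome 7 from 38742051 to 38782323 and Tagln lies on chromosome 8 from 50222896 to 50231357.

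The label names cardiomyocytes, and the genes that define other cell types of the heart were checked beside those of heart muscle. Col1a1, Postn, Dcn and Tagln are counted again here. They had been picked to mark the fraction, so their levels give no separate support. All 5 defining genes of fibroblasts were expressed: besides Col1a1, Postn and Dcn these were Lum, the proteoglycan lumican, at a mean of 193 FPKM, and Pdgfra, a growth factor receptor of fibroblasts, at 36.8 FPKM. All 5 of mural cells were expressed, with the smooth muscle actin gene Acta2 at 2345 FPKM, Tagln as above, the pericyte receptor Pdgfrb at 203, smooth muscle myosin Myh11 at 29.3 and the pericyte gene Rgs5 at 14.5 FPKM. All 5 of cardiomyocytes were expressed too, though none came near Col1a1 or Acta2: troponin T (Tnnt2) at 193 FPKM, cardiac actin (Actc1) at 129, cardiac myosin heavy chain (Myh6) at 19.3, cardiac troponin I (Tnni3) at 17.8 and the cardiac transcription factor Nkx2-5 at 1.24 FPKM. The most abundant of them ranked 305 among all genes. In a fraction labelled as cardiomyocytes the defining genes of heart muscle thus stood below Col1a1, Postn, Dcn, Acta2, Tagln and Pdgfrb in their means. The other markers did not go that way: Tnnt2 and Actc1 stood above Pdgfra, Myh11 and Rgs5, and Tnnt2 was level with Lum. Acta2 and Tagln are shared by fibroblasts and mural cells. The sorted cells are called the 2n fraction below.

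Of the defining endothelial genes, the receptor Tek reached 5.45 FPKM and the junction protein Cdh5 1.40 FPKM, while Vwf, the clotting factor carrier of endothelium, stood at 0.375 and the receptor Kdr at 0.368 FPKM. For Pecam1 no value was used here. Among macrophage genes, Cd68 stood at 0.685, Csf1r at 0.0225 and Ptprc, the pan-leukocyte gene, at 0.00252 FPKM, with Ptprc at 0 in 3 of 4 libraries. The red blood cell genes Hbb and Alas2 were at 0.0215 and 0 FPKM. Alas2 had 0 counts in all 4 libraries, and the upper limit that a count of 0 allows, 3 counts, is 0.0410 CPM (counts scaled to library size) over the 4 libraries together. That limit covers counting error only. The Schwann cell gene Sox10 stood at 0.0909 FPKM. The defining genes of macrophages and red blood cells were thus all under 1 FPKM in their mean, with Cd68 the highest. Those of endothelium ran from 0.368 to 5.45 FPKM, and Vwf and Kdr stood below Cd68.

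**Figure D1:**
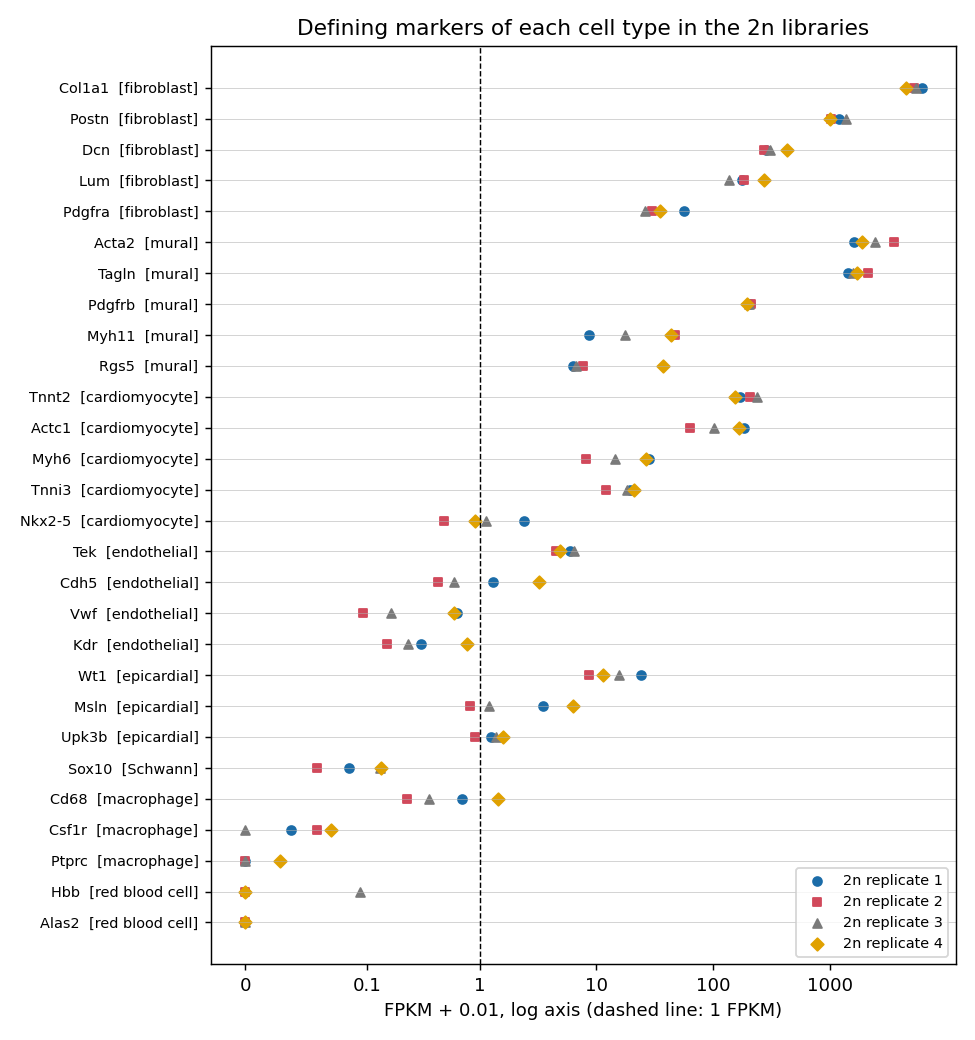
FPKM of the defining marker genes of each cell type in the 4 2n libraries, 1 point per library, on a log axis after adding 0.01; the dashed line marks 1 FPKM. Fibroblast and mural markers run from 14.5 to 5266 mean FPKM, cardiomyocyte markers from 1.24 to 193, and macrophage and red blood cell markers lie under the line in their mean.

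The most abundant genes were those of the collagen matrix, the actin cytoskeleton and the protein synthesis machinery. After Col1a1 came Col3a1, the chain of type III collagen, with 3811, 5054, 4879 and 3348 FPKM, and Sparc, a secreted protein that binds collagen, with 4005, 3916, 3927 and 3972 FPKM. Sparc was the steadiest of the 25 most abundant genes, with a ratio of 1.02 between its highest and lowest library. Then came the translation factor Eef1a1 (mean 3368 ± 222 SD, n = 4), beta-actin (Actb, 3030.4 ± 532), vimentin (Vim, the intermediate filament of mesenchymal cells, 2811 ± 259), the actin-binding peptide Tmsb4x (2786 ± 404), the proteoglycan biglycan (Bgn, 2541 ± 194) and Acta2 (2345 ± 829). Among the 25 most abundant genes with a symbol were also the basement membrane chain Col4a1 (1951 ± 175), fibronectin (Fn1, 1778 ± 290.5), Tagln, the non-muscle tropomyosin Tpm4 (1498 ± 184) and Serpinh1 (1352 ± 161), the collagen chaperone of the endoplasmic reticulum.

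Counted over the 100 most abundant genes, 48 were described as ribosomal proteins or elongation factors, 19 stood on the fibroblast, collagen or matrix lists, and 3 (Acta2, Tagln and tropomyosin Tpm2) on the smooth muscle list. None was on the cardiomyocyte, pericyte, endothelial, epicardial or macrophage lists. The 25 most abundant genes held 13.7% of the summed FPKM, the first 100 held 28.8%, and 428 genes held 50%. Several abundant entries have near-identical copies in the genome, so that the counting could have split their reads: 20 of the first 100 carried provisional or clone names. An entry named Potef, of a family whose proteins carry an actin-like part, stood at rank 16 with 1697 FPKM. The levels of single actins (Acta2, Actc1, Actg2, Actb) share this limit.

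**Figure D2:**
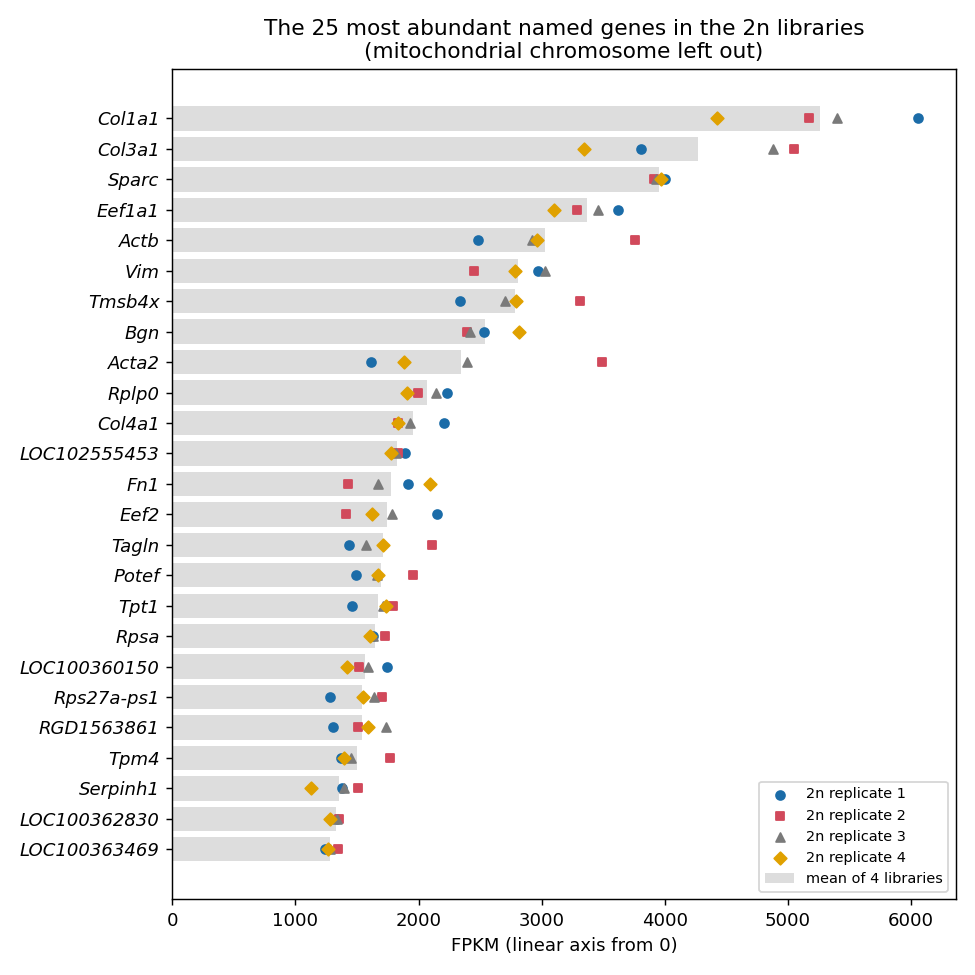
Mean FPKM (bars, from 0) and the value of each of the 4 2n libraries (points) for the 25 most abundant genes with a symbol outside the mitochondrial chromosome. Col1a1, Col3a1 and Sparc lead, and no cardiac sarcomere gene is among the 25.

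Fibroblast identity genes took 3.23% of the summed FPKM (3.36, 3.25, 3.42 and 2.88% in replicates 1 to 4), and 18 of 20 were expressed, against 37.8% of all genes. Col1a1, Col3a1 and Vim made up most of that share. Outside these, Dcn was the most abundant, followed by Lum (176, 184, 138 and 273 FPKM), and both were highest in replicate 4. Thy1, a surface protein of fibroblasts, had 77.8, 106, 82.4 and 119 FPKM and was likewise highest there. Pdgfra, with 56.4, 29.8, 25.9 and 35.1 FPKM, was highest in replicate 1. Tcf21, the transcription factor of resident cardiac fibroblasts and of the epicardium, had 67.8, 60.7, 71.3 and 35.9 FPKM and was lowest in replicate 4. The list had no single leading library: 8 of its 18 expressed genes were highest in replicate 4, 5 in replicate 1, 3 in replicate 3 and 2 in replicate 2, where 21.5% of all expressed genes were highest in replicate 4. Its remaining 2 genes, Col1a2 and Ogn, had 0 counts in all 8 libraries. Col1a2 encodes the partner chain of Col1a1 in type I collagen, so a 0 in this table can come from how reads were counted. Among genes of other lists, Aspn, Cd248 and Col15a1 also had 0 counts in all 8 libraries, and the same limit holds for them.

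Genes of activated fibroblasts took nearly as much, 3.13% (3.19, 2.92, 3.01 and 3.40%). Of these 20 genes 18 were expressed, against 37.8% of all genes, and 12 reached 100 FPKM, against 2.10%. Sparc, Bgn and Fn1 led, then Postn and Thbs1, thrombospondin, with 909, 902, 632 and 1140.1 FPKM. The matricellular genes Ctgf and Cyr61, both targets of the YAP co-activator, differed in their order. Ctgf had 409.7, 599, 613 and 662 FPKM and was lowest in replicate 1. Cyr61 had 647, 365, 409 and 434 FPKM and was highest in replicate 1. Tnc, tenascin-C, had 209, 261, 137 and 181 FPKM. Some genes of the list were low: Tgfbi stood at 3.68, osteopontin (Spp1) at 3.64 and Comp, a cartilage matrix protein, at 0.324 FPKM.

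Collagen chains took the largest share of any list, 4.28% (4.65, 4.33, 4.42 and 3.73%), and 18 of 20 were expressed. Col1a1 and Col3a1 count in this share and in that of fibroblast identity, so these shares overlap. Fibrillar types I and III led, followed by the basement membrane chains Col4a1 and Col4a2 (mean 1189 ± 139 SD, n = 4) and the beaded-filament chain Col6a1 (1071 ± 98.1). Of the fibrillar type V, Col5a2 stood at 957 and Col5a1 at 689 FPKM. Over the 18 expressed chains the median standard deviation (SD) of log2 CPM between libraries was 0.22, close to the 0.23 of all expressed genes. Of these chains 11 were highest in replicate 1 and 10 lowest in replicate 4. Of all expressed genes 29.8% were highest in replicate 1 and 26.5% lowest in replicate 4.

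The enzymes that fold, hydroxylate and cross-link collagen took 1.27% (1.44, 1.05, 1.28 and 1.30%), and all 20 were expressed. Serpinh1 led, and P4hb, the shared subunit of prolyl hydroxylase, had 907, 663, 841 and 894 FPKM. P4ha1, a catalytic subunit of the same enzyme, had 941, 382, 597 and 649 FPKM. Pcolce, which speeds the trimming of procollagen, had 515, 540.0, 624 and 499 FPKM and differed by 1.25 times between libraries. Loxl2 and Lox belong to the enzymes that cross-link collagen. Loxl2 had 472, 265, 376 and 369 FPKM. Lox had 258, 43.3, 198 and 300.1 FPKM. P4ha1, P4hb, Loxl2 and Lox were all lowest in replicate 2, Lox by 6.93 times against its highest library, and 8 of the 20 genes were lowest there against 22.0% of all expressed genes.

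Proteases of the matrix and their inhibitors took 0.445% (0.367, 0.437, 0.450 and 0.525%), with 13 of 20 expressed, against 37.8% of all genes. The membrane protease Mmp14 had 380.3, 548, 567 and 454 FPKM. Mmp2, the gelatinase it activates, had 356, 365, 425 and 716 FPKM and was highest in replicate 4. Timp2, an inhibitor of both, had 236, 268, 315 and 289.6 FPKM. Mmp14 and Mmp2 were both lowest in replicate 1. The binding proteins of insulin-like growth factors took 0.204% and were led by Igfbp7, with 451, 456, 319 and 472 FPKM. Igfbp3 had 420.1, 106, 286 and 350.1 FPKM and was lowest in replicate 2. Growth factors took 0.183%, with 23 of 25 expressed. Tgfb3, a transforming growth factor of mesenchymal tissue, was the most abundant with 158, 389.8, 367 and 393 FPKM, lowest in replicate 1. Inhba (63.7 ± 4.28 FPKM, SD, n = 4), Tgfb1 (62.0 ± 11.0) and Tgfb2 (61.8 ± 19.0) followed.

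**Figure D3:**
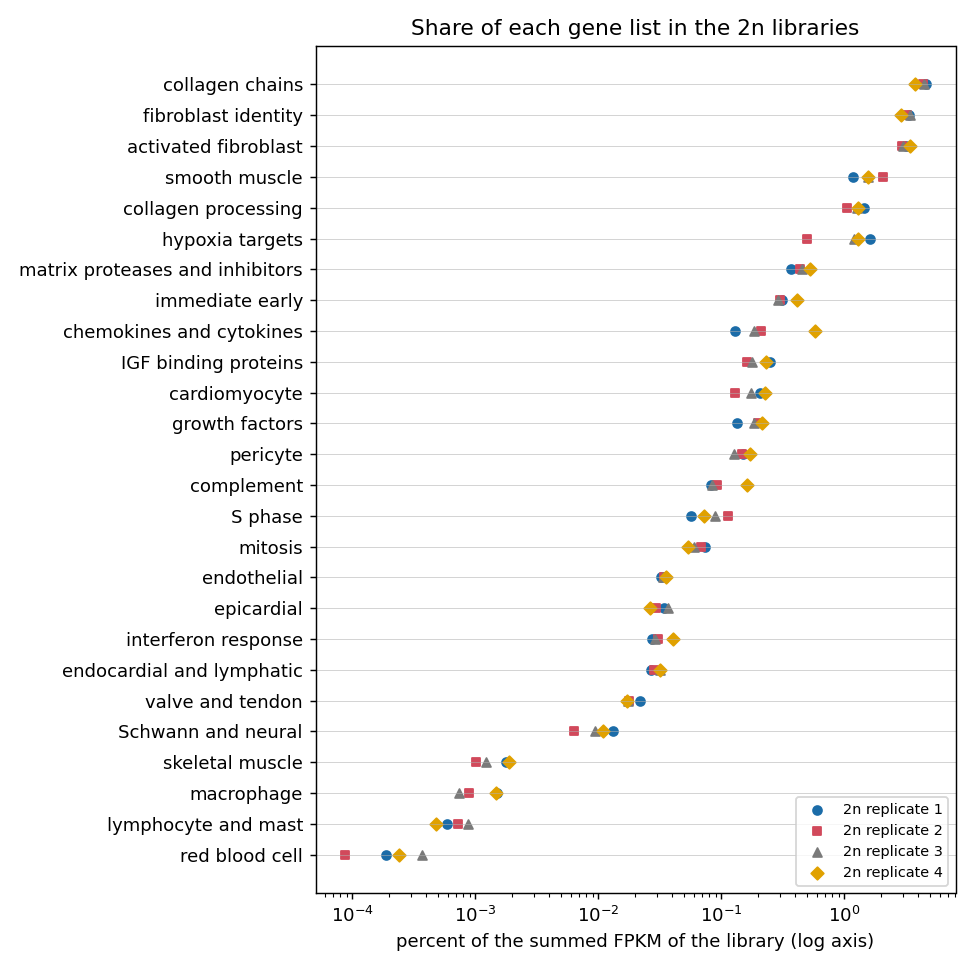
Share of each of the 26 gene lists in the summed FPKM outside the mitochondrial chromosome, on a log axis, with 1 point for each 2n library. Collagen chains, fibroblast and activated fibroblast genes hold over 3% each in their mean, the cardiomyocyte list 0.184% and the macrophage list 0.00115%; lists share some genes, and a share is led by its most abundant members.

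Smooth muscle genes took 1.59% of the summed FPKM (1.17, 2.08, 1.55 and 1.57%), and 18 of 20 were expressed. Acta2 had 1614, 3489.9, 2396 and 1880.1 FPKM and, with Tagln, carried most of the share. The list's share was 1.03% without Acta2, a change made after the values were seen. Tpm2, a muscle tropomyosin, had 572, 918, 807 and 909.9 FPKM. Myl9, a regulatory myosin light chain, had 380.4, 709, 556 and 565 FPKM. Tpm1, another tropomyosin, had 245, 434, 359 and 355 FPKM. Each of these 5 genes was highest in replicate 2 and lowest in replicate 1. Over the list 13 of 18 genes were highest in replicate 2 and 13 lowest in replicate 1, against 30.9% and 32.9% of all expressed genes. Myh11, the myosin heavy chain of mature smooth muscle, had 8.69, 47.3, 17.6 and 43.7 FPKM, a ratio of 5.44 between its highest and lowest library, with replicates 2 and 4 above replicates 1 and 3. Actg2, gamma smooth muscle actin, had 20.96, 134, 60.1 and 111 FPKM and followed the same order of high and low libraries. Myocd, the co-activator that drives smooth muscle genes, stood at 0.432 FPKM. Fibroblasts and mural cells share Acta2, Tagln and Tpm1, so their levels cannot tell these cell types apart.

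Pericyte genes took 0.149% (0.150, 0.148, 0.127 and 0.172%), with 10 of 15 expressed, against 37.8% of all genes. Pdgfrb, the receptor through which pericytes and fibroblasts are recruited, was steady at 208, 212, 201 and 194 FPKM. The adhesion molecule Mcam had 134, 209, 131 and 158 FPKM. The receptor Notch3 had 74.4, 111, 66.7 and 88.6 FPKM, and both genes were highest in replicate 2. Ndufa4l2, a mitochondrial protein raised by hypoxia, had 123, 22.1, 68.8 and 111 FPKM and was lowest in replicate 2. Rgs5, a regulator of G protein signalling in pericytes, had 6.33, 7.75, 6.66 and 37.1 FPKM: replicates 1 to 3 lay close together and replicate 4 was 5.86 times the lowest. An SD of log2 CPM of 1 or more was reached by 3 of 10 expressed pericyte genes, against 1.49% of all expressed genes, and by 1 without replicate 4.

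Endothelial genes took less than the smooth muscle and pericyte lists, 0.0339% (0.0322, 0.0340, 0.0336 and 0.0357%). Of the 19 endothelial genes 9 were expressed (47.4%, against 37.8% of all genes), and the median was 0.621 FPKM. Eng, endoglin, a co-receptor for transforming growth factors that mesenchymal cells also make, had 93.3, 105, 112 and 90.5 FPKM and alone made up most of the share, which was 0.00956% without it, a change made after the values were seen. Flt1, a receptor for vascular endothelial growth factor, had 13.0, 13.4, 10.4 and 19.9 FPKM. Tek had 5.93, 4.49, 6.45 and 4.93 FPKM and did not rank the libraries as Cdh5 did. Cdh5, the endothelial cadherin, had 1.30, 0.433, 0.597 and 3.27 FPKM, highest in replicate 4 and lowest in replicate 2. Vwf had 0.644, 0.0915, 0.167 and 0.599 FPKM. Kdr had 0.308, 0.154, 0.236 and 0.774 FPKM. Cdh5, Vwf and Kdr were each lowest in replicate 2, and none of them passed 3.27 FPKM in any 2n library. Vwf and Kdr, with means below 1 FPKM, are not among the 9 expressed genes, and the list did not share this order. Of those 9 genes, 2 were lowest in replicate 2, against 22.0% of all expressed genes. Lowest in replicate 3 were 5, against 18.6%, and highest in replicate 4 were 5, against 21.5%. The endocardial and lymphatic list took 0.0299%, led by Pdpn, podoplanin (mean 60.5 ± 7.87 SD FPKM, n = 4), and by Cdh11 (53.1 ± 1.37), a mesenchymal cadherin; both genes are also made by fibroblasts.

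Cardiomyocyte genes took 0.184% of the summed FPKM (0.208, 0.129, 0.173 and 0.225%), and 17 of 19 were expressed, 3 of them at 100 FPKM or more. Tnnt2 had 169, 209, 239 and 154 FPKM, highest in replicate 3. Nppa, atrial natriuretic peptide, had 152, 63.6, 104 and 206 FPKM, highest in replicate 4 and lowest in replicate 2. Actc1 had 184, 63.8, 102 and 168 FPKM, with the same library lowest. Myl3, a ventricular light chain, had 52.9, 24.5, 44 and 63.8 FPKM. Atp2a2, the calcium pump of the sarcoplasmic reticulum, had 58.0, 76.7, 64.4 and 71.0 FPKM. Tnnt2 and Atp2a2, 2 of the 5 most abundant genes of the list, did not share the order of Nppa, Actc1 and Myl3. Myh6 had 28.1, 8.23, 14.4 and 26.5 FPKM. Tnni3 had 19.7, 12.2, 18.4 and 21.1 FPKM. Nkx2-5 had 2.42, 0.495, 1.14 and 0.908 FPKM. These 3 were lowest in replicate 2 as well, and in all 15 of 17 expressed genes of the list were lowest in replicate 2, against 22.0% of all expressed genes. The list's share there was 0.129%, against 0.225% in replicate 4. Reads of Myh6 and of its neighbour Myh7, a close copy, may have been split between them. Of 14 skeletal muscle genes 2 were expressed.

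Epicardial and mesothelial genes took 0.0318%, most of it from Tcf21, Aldh1a2 and Wt1. Aldh1a2, the enzyme that makes retinoic acid, had 18.1, 26.6, 27.9 and 14.7 FPKM. Wt1, an epicardial transcription factor, had 24.3, 8.63, 15.7 and 11.4 FPKM and was highest in replicate 1. Tbx18, another transcription factor of the epicardium and of mural cells, had 11.8, 9.43, 10.2 and 13.8 FPKM. The surface genes of mature mesothelium were low. Upk3b, a uroplakin, had 1.25, 0.920, 1.38 and 1.58 FPKM. Msln, mesothelin, had 3.501, 0.828, 1.19 and 6.36 FPKM and was highest in replicate 4. Among Schwann and neural genes Ncam1, an adhesion molecule that mesenchymal cells make as well, had 43.4, 21.1, 28.8 and 31.5 FPKM, and 3 of 10 genes were expressed. Of 10 valve and tendon genes 4 were expressed, with a share of 0.0185%. Both counts lie near the 37.8% of all genes that were expressed. Tbx20, a cardiac transcription factor, had 56.97, 54.1, 51.8 and 45.3 FPKM. Sox9, a factor of cartilage and valve cells, had 24.7, 13.7, 14.4 and 12.7 FPKM. Of 15 macrophage genes 1 was expressed, Cd14 (3.90, 2.58, 1.97 and 3.42 FPKM), a receptor for bacterial lipopolysaccharide that fibroblasts also carry, and 6 had 0 counts in all 4 libraries. Of 10 lymphocyte and mast cell genes 1 was expressed, the receptor gene Kit (2.34, 2.82, 3.60 and 1.93 FPKM), and of 7 red blood cell genes none.

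Genes of the cell cycle were expressed in the sorted 2n cells. All 19 mitosis genes were expressed, at a median of 15.4 FPKM and a share of 0.0740, 0.0687, 0.0602 and 0.0538%. Cdk1, the kinase that drives entry into mitosis, had 29.8, 31.6, 24.8 and 21.4 FPKM. Kif20a, a motor of cytokinesis, had 28.2, 21.9, 18.1 and 18.1 FPKM. Cdc20, an activator of the anaphase-promoting complex, had 24.6, 24.1, 19.6 and 16.2 FPKM. Of the 19 genes 17 were lowest in replicate 4, against 26.5% of all expressed genes. Of 20 S phase genes 19 were expressed, with shares of 0.0563, 0.113, 0.0890 and 0.0717%. Pcna, the clamp of DNA polymerase, had 33.1, 82.6, 65.3 and 47.0 FPKM. Rrm1, a subunit of ribonucleotide reductase, had 26.8, 52.9, 40.5 and 36.2 FPKM. Mcm4, part of the replicative helicase, had 21.5, 39.8, 35.8 and 24.6 FPKM. All 19 expressed S phase genes were highest in replicate 2, against 30.9% of all expressed genes, and 16 were lowest in replicate 1, against 32.9%. Mitosis genes did not share that order, since 9 of them were highest in replicate 1 and 9 in replicate 2.

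Most genes differed little between the 4 libraries. The median SD of log2 CPM over the libraries was 0.23, against 0.07 expected from the counting of reads alone. An SD of 1 or more was reached by 174 of 11677 expressed genes (1.49%). None of the 100 most abundant genes was among them, and their median SD was 0.18. Of the 174, 75 were highest in replicate 1 and 83 in replicate 4, and 93 were lowest in replicate 2 and 47 in replicate 1. The hypoxia list held 12 of them among its 23 expressed genes and the chemokine and cytokine list 9 of its 17. The median SD was 1.00 on the hypoxia list, 1.03 on the chemokine and cytokine list, 0.62 on the cardiomyocyte list, 0.48 on the S phase list, 0.35 on the fibroblast identity list, 0.24 on the mitosis list and 0.22 on the collagen chain list.

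The 30 most variable genes with a symbol and a mean of at least 5 FPKM had SDs from 1.26 to 2.11 (the next gene stood at 1.22), each well above its counting error, which reached at most 0.30. They were chosen for this spread, so the values that follow describe it and test nothing. Of these genes 17 were lowest in replicate 2, 10 in replicate 1 and 3 in replicate 3, while 16 were highest in replicate 4, 12 in replicate 1 and 2 in replicate 2. With replicate 2 left out, 12 of the 30 were still among the 30 most variable, and 22, 27 and 19 were with replicate 1, 3 or 4 left out.

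**Figure D4:**
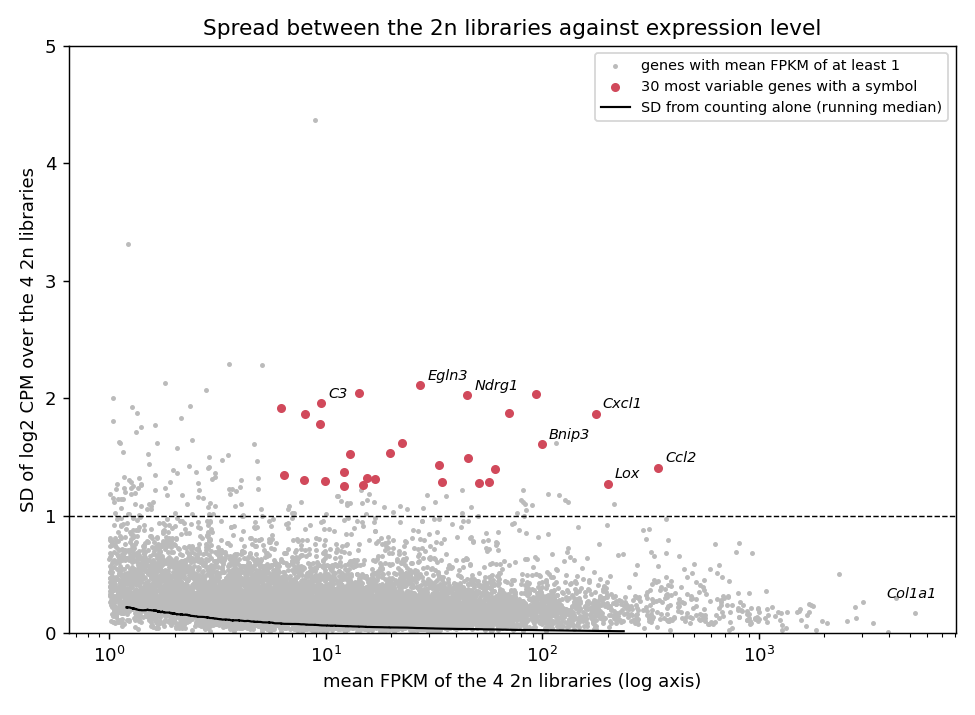
SD of log2 CPM over the 4 2n libraries against the mean FPKM (log axis), 1 point per expressed gene. Red points are the 30 most variable genes with a symbol and a mean of at least 5 FPKM. The black line is the running median of the SD from counting alone, and the dashed line is an SD of 1. Most genes lie under the dashed line, Col1a1 among them, and Egln3 is the highest red point.

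The gene with the largest spread, among those with a symbol and a mean of at least 5 FPKM, was Egln3. Egln3 is a prolyl hydroxylase that marks hypoxia-inducible factors for breakdown and is itself induced by them. It had 52.1, 1.92, 18.3 and 36.9 FPKM, so replicate 1 was 27.1 times replicate 2. Ndrg1, a stress gene induced by low oxygen, had 94.5, 3.58, 32.7 and 49.2 FPKM. Bnip3, which drives the removal of mitochondria, had 162, 13.7, 116 and 106 FPKM. In each of these 3 genes replicate 1 was highest and replicate 2 lay far below the other libraries. Car9, a carbonic anhydrase of the cell surface, had 19.9, 4.03, 7.44 and 27.7 FPKM. Higd1a, a mitochondrial protein, had 75.8, 10.8, 60.4 and 57.1 FPKM. Pfkfb3, a regulator of glycolysis, had 24.6, 2.74, 6.44 and 5.91 FPKM. Replicate 2 was again lowest in all 3, with replicate 4 highest for Car9 and replicate 1 far above the rest for Pfkfb3.

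The list of hypoxia target genes, which includes 6 of these 30, was low in replicate 2 throughout. Of its 24 genes 23 were expressed, and all 23 were lowest in replicate 2, against 22.0% of all expressed genes. In replicate 1 21 of them were highest, against 29.8%. The list took 1.63, 0.498, 1.19 and 1.28% of the summed FPKM. Aldoa, a glycolytic aldolase, had 1237, 426, 1085 and 979 FPKM. Pgk1, phosphoglycerate kinase, had 1064, 331, 864 and 977 FPKM. Eno1, enolase, had 862, 339.8, 721 and 682 FPKM. These glycolytic genes all had replicate 1 at the top. Ldha, which turns pyruvate to lactate, had 665, 262, 799 and 784 FPKM and was highest in replicate 3. Vegfa, the growth factor of vessels, had 432, 68.1, 137 and 215 FPKM. An SD of 1 or more was reached by 12 of the 23, against 1.49% of all expressed genes, and by 2 when replicate 2 was left out, so the count rests largely on that library. Without replicate 2 the mean share was 1.37%, against 1.15% over all 4. All cultures were labelled with the same oxygen level and time, and why replicate 2 was lower was not tested.

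Other genes followed replicate 2 as well. G0s2, an inhibitor of the breakdown of stored fat, had 197, 7.24, 72.3 and 96.7 FPKM. Slc16a3, the exporter of lactate, had 108, 6.63, 80.6 and 83.8 FPKM. Both were lowest in replicate 2 and highest in replicate 1. Apln, the peptide apelin, had 14.7, 0.789, 5.27 and 11.3 FPKM. Car12, another surface carbonic anhydrase, had 16.1, 1.03, 7.005 and 13.6 FPKM. Cox4i2, the cytochrome oxidase subunit used in low oxygen, had 54.4, 6.22, 22.2 and 50.3 FPKM. These 3 shared that order. Pygl, a glycogen phosphorylase, had 88.0, 10.9, 67.6 and 73.8 FPKM. Ak4, a mitochondrial adenylate kinase, had 22.1, 3.01, 18.4 and 18.5 FPKM, and for both genes replicates 1, 3 and 4 lay close together. The metallothioneins, which bind zinc and copper, shared the low library and not the high one. Mt1 had 12.0, 0.856, 18.9 and 25.2 FPKM. Mt1m had 25.5, 2.92, 15.0 and 36.0 FPKM. Mt2A had 60.2, 11.9, 59.1 and 94.4 FPKM. All 3 were highest in replicate 4. Metallothionein genes are close copies of each other, and the table holds more than 1 entry named Mt1, so their single levels are uncertain.

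The next genes were high in replicate 4. Ccl2, the main attractant of monocytes, had 79.0, 249.9, 207 and 833 FPKM. Ccl7, a chemokine of the same family, had 10.4, 21.7, 27.1 and 121 FPKM. Cxcl1, an attractant of neutrophils, had 19.9, 93.4, 145 and 445 FPKM, so replicate 4 was 22.3 times replicate 1. In all 3 replicate 1 was lowest and replicate 4 highest, with replicates 2 and 3 between. Il6, interleukin 6, had 1.94, 1.36, 1.03 and 20.5 FPKM. Ptgs2, the inducible enzyme of prostaglandin synthesis, had 12.0, 16.9, 19.5 and 89.7 FPKM. For Il6 and Ptgs2 replicates 1 to 3 lay close together and replicate 4 far above them. C3, the central complement protein, had 3.65, 2.83, 1.22 and 30.3 FPKM. Lcn2, an iron-binding acute-phase protein, had 14.2, 6.36, 5.29 and 64.5 FPKM. Lbp, which binds lipopolysaccharide, had 2.40, 3.00, 2.78 and 17.6 FPKM. All 3 were highest in replicate 4. The same held for Ereg, a ligand of the epidermal growth factor receptor, with 3.48, 6.25, 6.86 and 32.1 FPKM.

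Over the chemokine and cytokine list, which includes 5 of the 30 most variable genes, 16 of 17 expressed genes were highest in replicate 4, against 21.5% of all expressed genes, and 11 were lowest in replicate 1, against 32.9%. The list's share was 0.130, 0.208, 0.183 and 0.575%, with a mean of 0.274% over all 4 libraries and 0.174% without replicate 4. On it 9 of 17 genes had an SD of 1 or more, against 1.49% of all expressed genes, and 1 without replicate 4. Il1rl1, a receptor for interleukin 33, had 257, 326, 227 and 556 FPKM. Csf1, the growth factor of macrophages, had 77.6, 56.4, 52.4 and 80.8 FPKM. Both differed less between libraries than Ccl2, Ccl7 and Cxcl1 did.

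Complement genes took 0.0822, 0.0922, 0.0841 and 0.161%. C1r, which starts the classical pathway, had 137, 143, 128 and 253 FPKM. C1s, its partner protease, had 42.5, 54.0, 39.3 and 159 FPKM. Both were highest in replicate 4, while C7, of the terminal complex, had 111, 142, 144 and 118 FPKM and was highest in replicate 3. Of 13 expressed interferon response genes 11 were highest in replicate 4, against 21.5% of all expressed genes. An SD of 1 or more was reached by 3 of them, against 1.49%, and by 1 without replicate 4. These were low genes, named after their values were seen. Isg15, a ubiquitin-like protein, had 0.257, 0.687, 0.388 and 5.19 FPKM. Ifit3 had 0.631, 0.467, 0.835 and 3.498 FPKM. Oasl had 1.30, 0.311, 1.05 and 2.94 FPKM. The most abundant genes of the list differed less. Ifi27 had 54.2, 64.4, 60.2 and 74.1 FPKM. Ifit2 had 24.0, 25.7, 23.5 and 23.2 FPKM. Immediate early genes, which cells raise quickly after a stimulus, took 0.313, 0.297, 0.292 and 0.410%, and 14 of 21 were highest in replicate 4, against 21.5% of all expressed genes. The transcription factor Egr1 had 228, 202, 169 and 232 FPKM. Fos, part of the AP-1 factor, had 161, 194, 184 and 208 FPKM. Junb, a partner of Fos, had 159, 131, 107 and 195 FPKM. All 3 were highest in replicate 4, Egr1 and Fos by a small margin. Macrophage genes were low in level in replicate 4 as well, where Ptprc had 0.0101, Csf1r 0.0444 and Cd68 1.43 FPKM. Each of these was above its mean over the 4 libraries there, and Ptprc had counts in no other 2n library. The macrophage list's share was 0.00151, 0.000892, 0.000736 and 0.00148%, so replicate 4 stood above replicates 2 and 3 and near replicate 1.

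Of the 30 most variable genes, the remaining ones were lowest in replicate 1. Csrnp1, a nuclear protein, had 3.80, 16.4, 13.8 and 33.2 FPKM. Tll1, a protease of the procollagen-trimming family, had 2.88, 14.4, 10.1 and 21.02 FPKM. Both were highest in replicate 4. Olr63, listed as an olfactory receptor, had 2.06, 22.6, 10.3 and 16.8 FPKM. Vps25, a sorting protein of endosomes, had 1.85, 14.6, 5.43 and 9.77 FPKM. Both were highest in replicate 2. Olfactory receptors form a large family of similar genes, so reads listed for Olr63 may belong elsewhere.

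The 4n libraries, which were not used to choose these genes, carry the same replicate numbers. For 22 of the 30 genes (73.3%) the highest 2n and the highest 4n library had the same number, and for 23 (76.7%) the lowest had. Over all expressed genes the shares were 47.1% and 45.2%. The 30 genes were picked for a wide spread, so their highest and lowest libraries are better separated than those of most genes. A higher agreement can come from that choice alone. Many of the 30 also rise and fall together, so they are not independent of each other. Egln3 was an exception at the top: its 4n libraries had 56.1, 11.7, 104 and 68.0 FPKM, lowest in replicate 2 as in 2n, but highest in replicate 3. In the 4n libraries Cxcl1 had 44.7, 56.5, 71.6 and 317 FPKM. Il6 had 2.35, 0.861, 0.510 and 23.0 FPKM there, and both were highest in replicate 4. Vps25, with 14.6, 13.3, 1.87 and 10.4 FPKM, kept neither its highest nor its lowest number. A 2n and a 4n library of 1 number carry the same leading code in their descriptions, but the labels do not say that they came from the same sorted culture, and no 2n to 4n difference is read from these values.

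**Figure D5:**
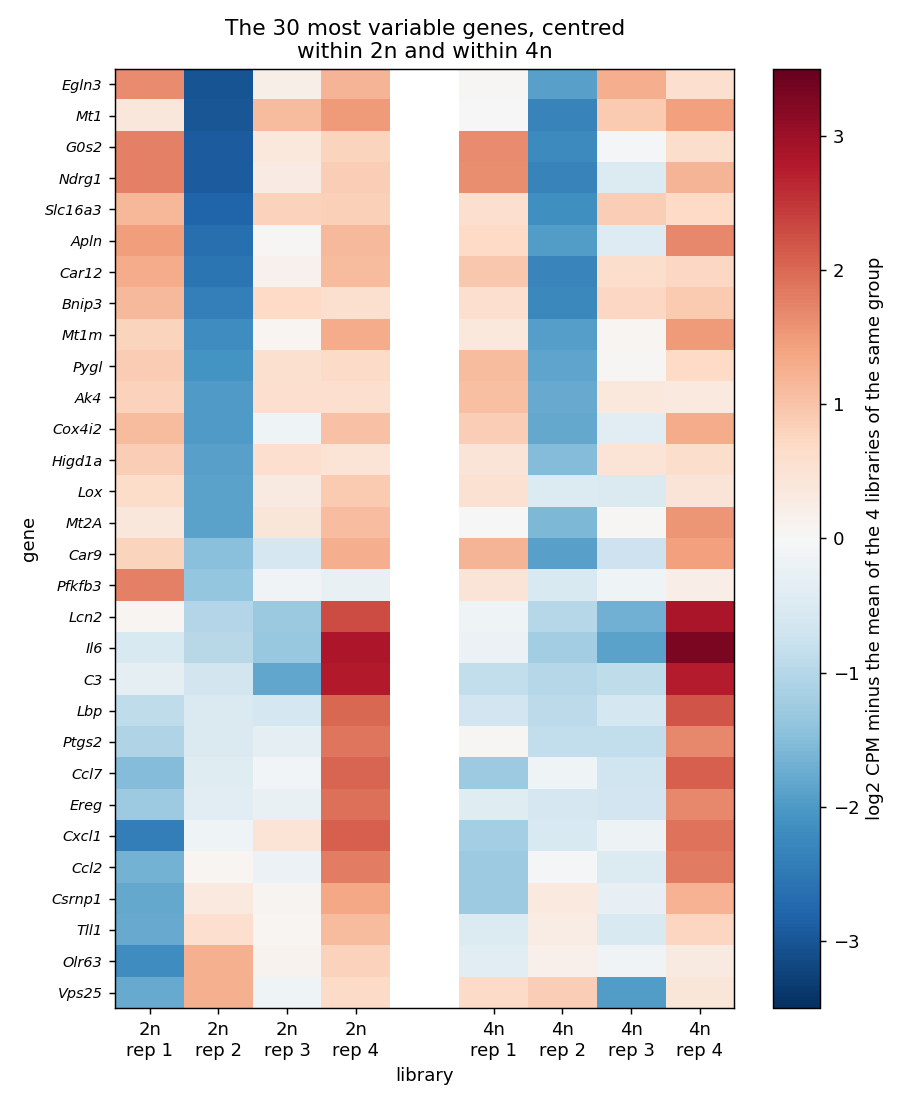
Log2 CPM of the 30 most variable genes in the 4 2n and the 4 4n libraries, each gene minus its mean over the 4 libraries of the same group (colour scale, red above and blue below the mean), ordered by the replicate 2 value in 2n with the lowest at the top. Of the 30 genes 16 are highest in replicate 4 of 2n, 12 are highest in replicate 1, Olr63 and Vps25 are highest in replicate 2, and for 22 the highest 4n library has the same number.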

How the data were processed

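The authors deposited 1 table for the series with a raw count and an FPKM value per gene and library. The file headers give these units, and the titles gave each library's group and replicate number. Per the submitters' processing notes, HISAT2 2.0.4 and the genome build Rnor 6.0 were used. The counter, the annotation and the strand setting were not given in the sources used here, so reads of overlapping genes on opposite strands cannot be told apart. In the deposited table the FPKM values can be rebuilt within 0.0808% from the counts, 1 length per gene and the sum of all counts in a library, mitochondrial genes included.

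Levels and shares were computed from the deposited FPKM values over 30920 genes outside the mitochondrial chromosome. Spread between libraries was the SD of log2 CPM computed from the deposited counts with edgeR 4.0.16 in R 4.3.3 (TMM scaling, prior count 2). DESeq2 1.42.0 supplied other size factors as an alternative. Python 3.11.15, pandas 2.3.3 and numpy 2.4.6 were used for the rest. The libraries hold from 14783521 to 21033772 counts. Only 1 group is described, so no test was made and no p-value is given.

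The members and the 26 gene lists were chosen with earlier results of these data known. Of 439 listed symbols 429 matched, 5 of them by an older spelling found after the table was seen. Ttn, C5, Nfatc1, Pecam1, Egln1, Ier2, Ccnb2, Hba-a1, Hbb-bs and Myh2 were not matched and were not analysed here. A few further genes are not reported here and stand on no list. Where a symbol had several entries, the one with the highest mean was used. The named genes were drawn from the 25 most abundant genes with a symbol, the 5 most abundant of each list, the defining markers, Col1a1, Postn, Dcn and Tagln, and the 30 genes with a symbol, a mean of at least 5 FPKM and the largest SD. Actg2, Col5a1, Col5a2, Comp, Ctgf, Cyr61, Ifit3, Isg15, Myocd, Oasl, Spp1, Tgfbi, Thy1, Tnc and Vegfa were named from the lists after their values were seen. The alternatives tried were other scalings, pseudocounts and filters, shares of counts, and leaving out each library.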

Additional observations from a re-analysis of the deposited data

Results flagged for a closer look

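For each named gene and each list, the library at either end was set against the other 3, and the gap to its nearest neighbour was divided by the whole range of the 4 values. With 4 libraries, chance marks about 1 in 20 groups in this way. Here 167 genes and lists were looked at and 15 were marked, but some genes had been named for their spread and many share a pathway, so the marks are not independent.

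Replicate 2 stood low for 7 genes. The gap took 0.920 of the range for the adenylate kinase Ak4, 0.906 for the lactate exporter Slc16a3, 0.889 for the glycogen phosphorylase Pygl, 0.864 for Higd1a, 0.849 for the glycolytic kinase Pgk1, 0.836 for Bnip3 and 0.833 for the hydroxylase subunit P4hb.

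Replicate 4 stood high for the share of the complement list, at 0.872 of the range, and for the genes Lbp at 0.875, the pericyte gene Rgs5 at 0.870, the complement protease C1r at 0.839 and the proteoglycan Bgn at 0.832. Bgn differed by 1.18 times between its highest and lowest library, so here the mark reflects 3 libraries that lie very close together. Ptprc was marked in the same library with a gap of 1.0 of the range because the other 3 had 0 counts. The same holds for Hbb in replicate 3, again 1.0, where 3 libraries had 0 counts. Replicate 1 stood low for the growth factor Tgfb3, with a gap of 0.939 of the range.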

How the results depend on the processing

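Of 49 recalculations under other settings, 38 stayed close to the value reported and 11 did not. Close meant within 1 SD over the libraries for a list share and within 1.5 times for the number of variable genes. For the percentage of genes with the same highest 4n library it meant inside a binomial interval, which takes genes as independent. As a percent of gene counts instead of summed FPKM, the fibroblast identity share was 6.04 instead of 3.23 and the endothelial share 0.0590 instead of 0.0339. With the mitochondrial chromosome included they were 2.97 and 0.0312%. Shares were also taken without 1 abundant member, chosen after the data were seen. They were 2.54% for fibroblast genes without Vim and 1.03% for smooth muscle genes without Acta2. For endothelial genes without Eng the share was 0.00956%, and for cardiomyocyte genes without Tnnt2 it was 0.137%. Vim stood behind Col1a1 and Col3a1 on its list, and the fibroblast share without either was not computed. The number of genes with an SD of 1 or more was 174, and it was 79 on the log2(FPKM + 1) scale, 77 among genes with a mean of at least 5 FPKM and 693 with no filter on the mean, where more genes of few counts enter. Leaving out each library in turn gave shares of 3.16 to 3.34% for fibroblast identity, 1.43 to 1.73% for smooth muscle, 0.0333 to 0.0344% for endothelial and 0.170 to 0.202% for cardiomyocyte genes, and 156 to 238 variable genes. The order of the 4 shares was the same under every one of these settings, none of which left out Col1a1 or Col3a1. At least 24 of the 25 most abundant genes were shared whichever library was left out. The most variable genes were less stable, as given above for replicates 2 and 4. The share of the 30 most variable genes whose highest 4n library has the same number lay between 73.3 and 80.0%. No paired analysis was possible because 1 group is described and no result comes from a test.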
